A study of Mus musculus with 6 samples.

Results

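Structured and nuclear noncoding RNAs were measured in RNA from crude heart mitochondria, a preparation that also carries RNA of the cytosol, the endoplasmic reticulum and the nucleus. The group has 7 members, chosen by gene name: Rmrp, Rpph1, Rn7sk, Rn7s1, Rn7s2, Malat1 and Neat1. All 7 have a row among the 39142 nuclear identifiers in the count files, and all 7 passed the low-count filter. The knockout group had 3 libraries from mice labelled L/L, cre and Polrmt -/-, in which cre driven by the muscle creatine kinase promoter cut out the loxP-flanked exon 3 of Polrmt. The control group had 3 libraries from mice labelled L/L and Polrmt +/+, whose alleles are loxP-flanked too but meet no cre. All mice were of the C57BL/6N strain and aged between 3 and 4 weeks. Polrmt encodes the RNA polymerase of mitochondria. The promoter acts in muscle cells, and the other cell types of the heart keep the gene. The labels do not say that the libraries of a group came from separate animals, so p-values measure the spread between these samples, which may be technical.

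Rmrp and Rpph1 are the catalytic RNAs of RNase MRP and RNase P, related ribonucleoproteins that share most of their proteins. RNase MRP cuts the precursor of cytosolic rRNA in the nucleolus and was first described in mouse cells as an enzyme that cleaves the RNA primer of mtDNA replication in the test tube. RNase P removes the leader of tRNA precursors in the nucleus, whereas mitochondria use an enzyme made of protein alone for that step. Rn7sk, the 7SK RNA, holds the elongation kinase P-TEFb in an inactive state. Rn7s1 and Rn7s2 encode 7SL, the RNA of the signal recognition particle, which brings ribosomes to the endoplasmic reticulum. These 5 RNAs are made by RNA polymerase III. Malat1, a long RNA of nuclear speckles, and Neat1, the scaffold of paraspeckles, are made by RNA polymerase II and are retained in the nucleus.

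The sequences of the short RNAs decide which counts can be told apart, and those of Rmrp, Rpph1 and Rn7sk are shown for that reason. The annotated Rn7s1 (chr12:69159295-69159594, plus strand, GRCm38) and Rn7s2 (chr12:69361182-69361481, minus strand) were 100% identical over all 300 bases.
Rmrp (chr4:43492788-43493058, minus strand, 271 bases) and Rpph1 (chr14:50807449-50807767, minus strand, 319 bases) are distinct, and capitals mark the 2 runs of 9 bases that they share, the longest in common. Of Rpph1 bases 1 to 300 are printed. These runs are descriptive and cover 6.6% of Rmrp.
Rmrp: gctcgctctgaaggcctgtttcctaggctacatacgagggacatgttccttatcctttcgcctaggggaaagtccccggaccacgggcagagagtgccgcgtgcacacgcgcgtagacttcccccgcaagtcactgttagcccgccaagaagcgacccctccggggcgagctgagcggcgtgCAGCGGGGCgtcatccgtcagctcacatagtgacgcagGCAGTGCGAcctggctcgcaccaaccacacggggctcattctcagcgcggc
Rpph1: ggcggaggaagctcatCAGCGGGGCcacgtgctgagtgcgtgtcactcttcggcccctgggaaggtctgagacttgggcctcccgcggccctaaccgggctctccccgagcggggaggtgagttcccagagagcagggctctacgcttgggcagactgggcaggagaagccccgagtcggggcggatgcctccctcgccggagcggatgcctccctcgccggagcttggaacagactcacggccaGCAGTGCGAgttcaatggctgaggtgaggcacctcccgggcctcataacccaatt
Rn7sk (chr9:78175303-78175633, minus strand, 331 bases) is shown over bases 1 to 300 with its 3 copies of GATC in capitals, the letters which, in the first hairpin of human 7SK, form the site of the P-TEFb inhibitor HEXIM1. GATC reads the same on both strands. It occurred at least 3 times in the first 331 bases of 7.99% of the 129282 annotated transcripts of that length or longer.
Rn7sk: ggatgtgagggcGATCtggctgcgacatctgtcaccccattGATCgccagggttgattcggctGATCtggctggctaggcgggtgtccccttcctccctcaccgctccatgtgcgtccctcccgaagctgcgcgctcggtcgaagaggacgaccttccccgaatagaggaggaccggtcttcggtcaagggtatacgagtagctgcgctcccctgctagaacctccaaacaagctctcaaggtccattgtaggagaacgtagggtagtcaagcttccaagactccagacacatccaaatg
No copy with at least 90% identity over at least 80% of the length was found among the counted genes for Rmrp, Rpph1 or Rn7sk. For 7SL, beside the identical pair, Gm24105 had 91.7% identity and no count in any library. Malat1 (chromosome 19, 5795690 to 5802672) and Neat1 (chromosome 19, 5824708 to 5845478) are long genes on the minus strand with 6983 and 20771 bases of exon.

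Total counts were between 1062030 and 1227997 in knockout libraries and between 2867067 and 3234729 in control libraries, of which mtDNA transcripts were 21.1% to 25.8% in knockouts and 79.5% to 83.5% in controls. Nuclear counts were between 838015 and 910826 in knockouts and between 499334 and 586461 in controls, and 5 loci that collect rRNA reads held 82.0% to 84.9% of them in knockouts and 80.6% to 84.6% in controls. This left 126339 to 164004 other nuclear counts per knockout library and 76949 to 109351 per control library. Levels are therefore given as nuclear CPM, counts scaled to CPM by the nuclear library size after TMM scaling, and 3 counts are worth between 3.10 and 6.60 of these units. Polrmt had 2, 5 and 1 counts in knockouts and 3, 2 and 1 counts in controls, and a count over the whole gene does not resolve the deleted exon. All 8 cardiomyocyte markers were detected, with a summed level between 10680 and 11550 nuclear CPM in knockouts and between 11340 and 13490 nuclear CPM in controls. The deposited files are bulk measurements, in which fewer cells of a type, less RNA per cell and a smaller carry-over of a compartment into the preparation cannot be told apart.

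The share of the 7 RNAs together differed between the groups by less than the spread between libraries. They held 1703, 2065 and 1929 counts in knockouts and 888, 1404 and 1573 counts in controls. Of nuclear counts outside the rRNA read loci, that was 1.35%, 1.44% and 1.18% in knockouts and 1.15%, 1.304% and 1.44% in controls, so the groups overlapped. The mean share was 1.32% ± 0.132 in knockouts and 1.299% ± 0.142 in controls (SD, n = 3 each; exact permutation p = 0.8, 2-sided). Within a library the 95% Clopper-Pearson interval was narrower than this spread, for example 1.285% to 1.41% in knockout 1 and 1.08% to 1.23% in control 1, and covers counting error only. Malat1 alone held 3200 of the 5697 counts in knockouts and 2233 of the 3865 in controls, and so weighs most in the joint share. One by one, Rmrp rose, Rn7sk and Rn7s2 fell, and Rpph1, Rn7s1, Malat1 and Neat1 did not pass the test (edgeR quasi-likelihood test, adjusted p under 0.05 over 2351 nuclear genes). That is 1 of 7 higher, where 8.46% of all tested genes were, and 2 of 7 lower, where 6.85% were. DESeq2 called 0 of the 7, and of all genes 93 higher and 50 lower, where edgeR called 199 higher and 161 lower. At an unadjusted p under 0.05, edgeR had 341 genes higher and 325 lower. The median log2 fold change was -0.02 over the 7 RNAs and -0.01 over all genes tested.

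**Figure D1:**
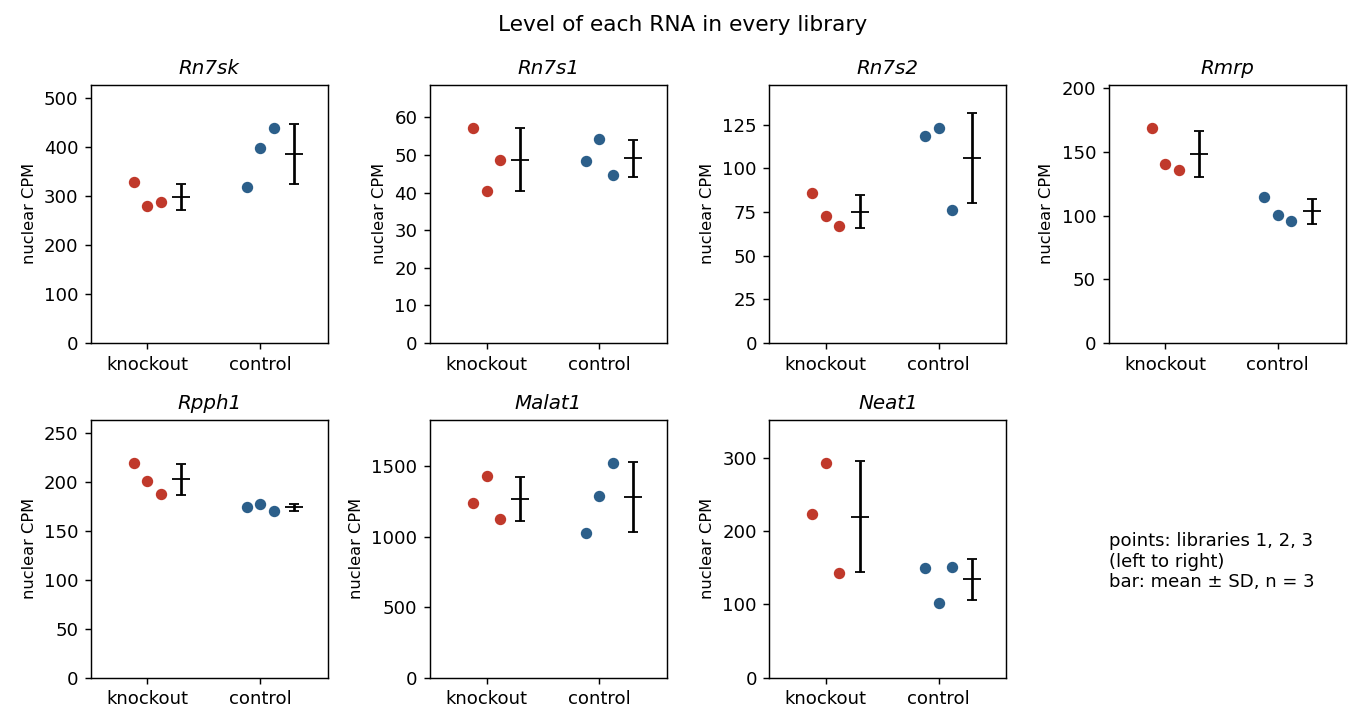
Nuclear CPM of each RNA in every library, with knockouts in red on the left and controls in blue on the right, and the mean ± SD (n = 3) beside the points. On this scale, Rmrp and Rpph1 are the RNAs in which all 3 knockouts lie above all 3 controls, and the other 5 overlap.

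Rmrp was the RNA that passed the test as higher. It had 169, 141 and 135.5 nuclear CPM in knockouts and 114, 101 and 95.5 nuclear CPM in controls. Every knockout library lay above every control library, as in 16.8% of all tested genes, and in 32.8% of them the groups did not overlap in either direction. The level was 148 ± 18.0 nuclear CPM in knockouts and 103.5 ± 9.74 nuclear CPM in controls (SD, n = 3 each), and the fold was 1.44 with a 95% interval from 1.16 to 1.78 (log2 fold change 0.52 ± 0.16 SE and adjusted p = 0.0140). The call was lost with DESeq2 (adjusted p = 0.239), with no scaling beyond the nuclear library size (0.170), with mtDNA genes in the library size (0.0513), with no low-count filter (0.0502) and without knockout 1, control 2 or control 3 (highest adjusted p 0.0831). The direction was the same in all 9 other settings and with each library left out. In the authors' deposited table, Rmrp had a log2 fold change of 0.62 and a false discovery rate of 0.00334, the only member of the 7 under 0.05 there.

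Rpph1, whose RNA is bound by most of the same proteins, had a smaller difference in the same direction that did not pass the test. It had 219, 200.2 and 187 nuclear CPM in knockouts and 174, 177 and 170.3 nuclear CPM in controls. After TMM scaling the groups did not overlap here either, and the controls lay close together. The unscaled share of nuclear counts did overlap between the groups. It was 0.01921%, 0.0196% and 0.01987% in knockouts and 0.01582%, 0.01998% and 0.01825% in controls. Outside the rRNA read loci the shares of Rpph1 did not overlap. The fold was 1.16 with a 95% interval from 0.956 to 1.41 (log2 fold change 0.21 ± 0.14 SE and adjusted p = 0.328), so a rise of the size seen for Rmrp lies just outside it. In the annotation, Rmrp lies within a second gene of that name on the same strand, which has no row in the count files used here. Rmrp also overlaps an exon of Ccdc107 on the opposite strand, which had 6 counts over all libraries, and Rpph1 overlaps an exon of Ccnb1ip1 on its own strand, which had 0. Rn7s1, Rn7s2, Malat1 and Neat1 overlap exons of other annotated genes too, which have no row in the count files or 0 counts. The sources used here do not give how reads in such overlaps were counted.

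The ratio of Rmrp to Rpph1 within a library needs no scaling. It was 0.771, 0.703 and 0.725 in knockouts and 0.660, 0.570 and 0.563 in controls. The knockouts were above the controls throughout, and the mean log2 ratio was -0.45 ± 0.07 in knockouts and -0.75 ± 0.13 in controls (SD, n = 3 each). The difference of 0.30 had an exact permutation p of 0.1, the smallest that 3 against 3 allows, and 0.3 when adjusted over the 6 ratios computed. Transcripts of the proteins of these enzymes, shared or not, were scarce. The list of 12 RNase P and MRP proteins had 41 counts over the knockouts and 11 over the controls, and no member was tested. Their summed level was between 9.53 and 20.7 nuclear CPM in knockouts and between 4.40 and 7.96 nuclear CPM in controls.

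Rn7sk fell modestly. It had 328, 280 and 287.5 nuclear CPM in knockouts and 319, 398 and 439 nuclear CPM in controls. The groups overlapped, since control 1 lay among the knockouts while control 2 and control 3 lay above them. The level was 299 ± 26.0 nuclear CPM in knockouts and 385 ± 61.2 nuclear CPM in controls (SD, n = 3 each), a fold of 0.770 with a 95% interval from 0.640 to 0.926 (log2 fold change -0.38 ± 0.13 SE and adjusted p = 0.0423). The call was lost in 4 of the 9 other settings and in 4 of the 6 fits with a library left out, namely without knockout 2, knockout 3, control 2 or control 3 (highest adjusted p 0.283). The authors' deposited table gives a log2 fold change of -0.34 with a false discovery rate of 0.405.

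Transcripts of the proteins that act with 7SK did not pass the test where they could be tested. Of the 11 listed genes of the 7SK particle and P-TEFb, 3 had enough counts to be tested and 0 were called. Aff1 and Aff4, scaffolds of the super elongation complex, had log2 fold changes of 0.02 and 0.08. Larp7, which binds the end of 7SK, had 1 count in each knockout library and 1, 0 and 0 counts in controls. Hexim1, the inhibitor that 7SK brings to P-TEFb, had 7, 5 and 3 counts in knockouts and 2, 6 and 4 counts in controls.

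The 7SL genes cannot be separated by their annotated sequence, which limits what their separate values show. Rn7s2 had 85.8, 72.7 and 67.2 nuclear CPM in knockouts and 119, 123 and 76.4 nuclear CPM in controls. Control 3 lay among the knockouts on this scale. In unscaled shares of all nuclear counts, every knockout lay below every control, and outside the rRNA read loci the groups overlapped. The fitted fold was 0.711 with a 95% interval from 0.557 to 0.906 (log2 fold change -0.49 ± 0.18 SE and adjusted p = 0.0435), which counts as lower. Rn7s1 had 57.2, 40.5 and 48.6 nuclear CPM in knockouts and 48.4, 54.3 and 44.6 nuclear CPM in controls. The controls lay within the range of the knockouts, with a fold of 0.987 and a 95% interval from 0.732 to 1.33 (adjusted p = 0.973). A read that lies within the shared 300 bases fits both genes equally well, and the sources used here do not say which of them received it.

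Summed to 1 RNA, a choice made after seeing the data, 7SL did not pass the test. It then had 143, 113 and 116 nuclear CPM in knockouts and 167, 178 and 121 nuclear CPM in controls. Knockout 1 lay above control 3 on this scale. The unscaled share of nuclear counts was 0.01253%, 0.01108% and 0.0123% in knockouts and 0.01522%, 0.01998% and 0.01296% in controls. Every knockout share lay below every control share (exact permutation p = 0.1, the smallest that 3 against 3 allows). Outside the rRNA read loci the shares overlapped. The fold was 0.799 with a 95% interval from 0.645 to 0.990 (log2 fold change -0.32 ± 0.16 SE and adjusted p = 0.154), and with each library left out the adjusted p was between 0.0575 and 0.568. The call of Rn7s2 as lower therefore rests on a division of reads that the annotated sequences do not fix. It was also lost with DESeq2 (adjusted p = 0.341), with no scaling beyond the nuclear library size (0.054), with no low-count filter (0.261), on genes with a count in all 6 libraries (0.132) and without knockout 2, knockout 3, control 1 or control 2 (highest adjusted p 0.312).

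The protein side of the signal recognition particle was thinly covered. Of 9 listed genes for its proteins and receptor that are in the files, 1 was tested. Srpr, the receptor subunit that docks the particle at the endoplasmic reticulum, had 12, 19 and 15 counts in knockouts and 12, 12 and 7 counts in controls, and did not pass (log2 fold change -0.01 ± 0.36 SE and adjusted p = 0.997). The translocon, the channel that receives the nascent chain, had 4 of 16 listed genes tested and none called, with a median log2 fold change of 0.04.

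Malat1 was the most abundant of the 7 RNAs by counts and did not differ beyond the spread. It had 1237, 1434 and 1126 nuclear CPM in knockouts and 1029, 1288 and 1526 nuclear CPM in controls. The controls span the whole range of the knockouts. The level was 1266 ± 156 nuclear CPM in knockouts and 1281 ± 249 nuclear CPM in controls (SD, n = 3 each), and the fold was 0.986 with a 95% interval from 0.822 to 1.18 (adjusted p = 0.941). With 3200 counts over the knockouts and 2233 over the controls, Malat1 was the best covered of the group.

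Neat1 was higher in part of the knockouts and did not pass the test. It had 223, 293 and 143 nuclear CPM in knockouts and 149, 102 and 151 nuclear CPM in controls. Knockout 1 and knockout 2 were above every control, while knockout 3 was below control 1 and control 3. The level was 219.8 ± 75.3 nuclear CPM in knockouts and 134 ± 27.8 nuclear CPM in controls (SD, n = 3 each), a fold of 1.64 with a 95% interval from 1.01 to 2.65 (log2 fold change 0.71 ± 0.30 SE and adjusted p = 0.170). Without knockout 3 it passed with a log2 fold change of 0.98 (adjusted p = 1.74e-06), and without knockout 2 it was 0.45 (adjusted p = 0.0599). It also passed without control 2, with no scaling beyond the nuclear library size, without the low-count filter and on genes with a count in all 6 libraries. The authors' deposited table gives Neat1 a log2 fold change of 0.72 and a false discovery rate of 0.0944. A count over the whole gene does not tell the short from the long Neat1 isoform, of which the long one builds paraspeckles.

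Malat1 and Neat1 lie next to each other on chromosome 19, and the ratio between them varied over the libraries. In nuclear CPM, both were highest in knockout 2 and lowest in knockout 3 among knockouts, and control 3 was the highest control for both. The ratio of Neat1 to Malat1 counts was 0.181, 0.205 and 0.127 in knockouts and 0.146, 0.0800 and 0.0995 in controls. Knockout 3 lay below control 1, and the mean log2 ratio of -2.58 ± 0.36 in knockouts against -3.25 ± 0.44 in controls (SD, n = 3 each) gave an exact permutation p of 0.2. Of the listed paraspeckle proteins 10 of 16 were tested and none was called, with a median log2 fold change of -0.11. Sfpq, an RNA-binding protein that paraspeckles need, had -0.39 ± 0.34 SE as its log2 fold change (adjusted p = 0.487) and Nono, its partner, one of -0.18 ± 0.41 SE. Of the nuclear speckle proteins, the compartment of Malat1, 5 of 11 were tested and none was called, with a median of -0.11.

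**Figure D2:**
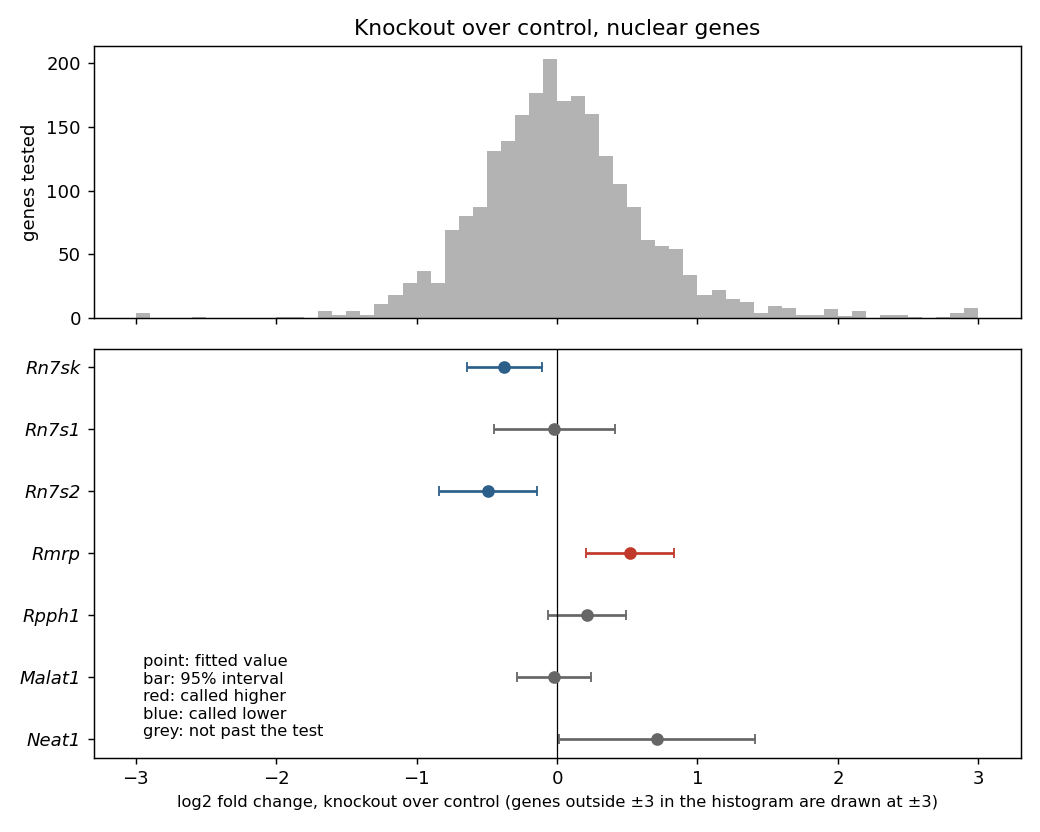
Upper panel, log2 fold changes of all 2351 tested nuclear genes. Lower panel, the fitted log2 fold change of each RNA with its 95% interval, red where called higher, blue where called lower and grey where the test was not passed. Genes outside ±3 are drawn at ±3. The values of the 7 RNAs, from -0.49 to 0.71, lie between the 16.6th and 88.6th percentile of tested genes.

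Per base of exon, Rn7sk, Rpph1, Rmrp and summed 7SL stood above both long nuclear RNAs. On the RPKM scale, nuclear CPM per kilobase, Rn7sk had 902 ± 78.5 in knockouts and 1164 ± 185 in controls (SD, n = 3 each), which ranked 12 of 2348 tested genes by mean level. Rpph1 had 634 ± 50.6 RPKM in knockouts and 545 ± 11.2 RPKM in controls, and Rmrp had 547 ± 66.4 RPKM in knockouts and 382 ± 35.9 RPKM in controls. The order in knockouts was thus Rn7sk, Rpph1, Rmrp, and the spreads of Rpph1 and Rmrp overlapped there but not in controls. Rn7s2 had 251 ± 31.9 RPKM in knockouts and 354 ± 86.0 RPKM in controls, which in controls lay within the spread of Rmrp. Summed to 1 RNA, 7SL had 413 ± 55.2 RPKM in knockouts and 517 ± 100.5 RPKM in controls. Malat1, with 181 ± 22.3 RPKM in knockouts and 183.5 ± 35.6 RPKM in controls, and Rn7s1, with 163 ± 27.8 RPKM in knockouts and 164 ± 16.5 RPKM in controls, did not differ beyond their spread. Neat1 was far lower, with 10.6 ± 3.62 RPKM in knockouts and 6.47 ± 1.34 RPKM in controls, and ranked 601. Its RPKM is per base of the long isoform. All RPKM values divide by the full exon length, and whether short and long RNAs were recovered equally was not tested.

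The sum of the nuclear RNAs Malat1 and Neat1 relative to Rn7sk, also a nuclear RNA, within a library was 4.44, 6.15 and 4.41 in knockouts and 3.69, 3.49 and 3.81 in controls. All knockouts lay above all controls, and the difference of 0.43 in mean log2 ratio had an exact permutation p of 0.1, adjusted 0.3. The same sum relative to 7SL, an RNA of the cytosol, was 10.2, 15.2 and 10.9 in knockouts and 7.01, 7.81 and 13.8 in controls. Control 3 lay within the knockouts, and the difference of 0.39 had an exact permutation p of 0.3, adjusted 0.36. The ratio of 7SL to Rn7sk was 0.437, 0.405 and 0.404 in knockouts and 0.526, 0.447 and 0.277 in controls. The controls spread on both sides of the knockouts (difference 0.05 on the log2 scale, exact permutation p = 1). The ratio of Rn7s1 to Rn7s2 was 0.669, 0.561 and 0.725 in knockouts and 0.413, 0.445 and 0.588 in controls, with an exact permutation p of 0.2.

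**Figure D3:**
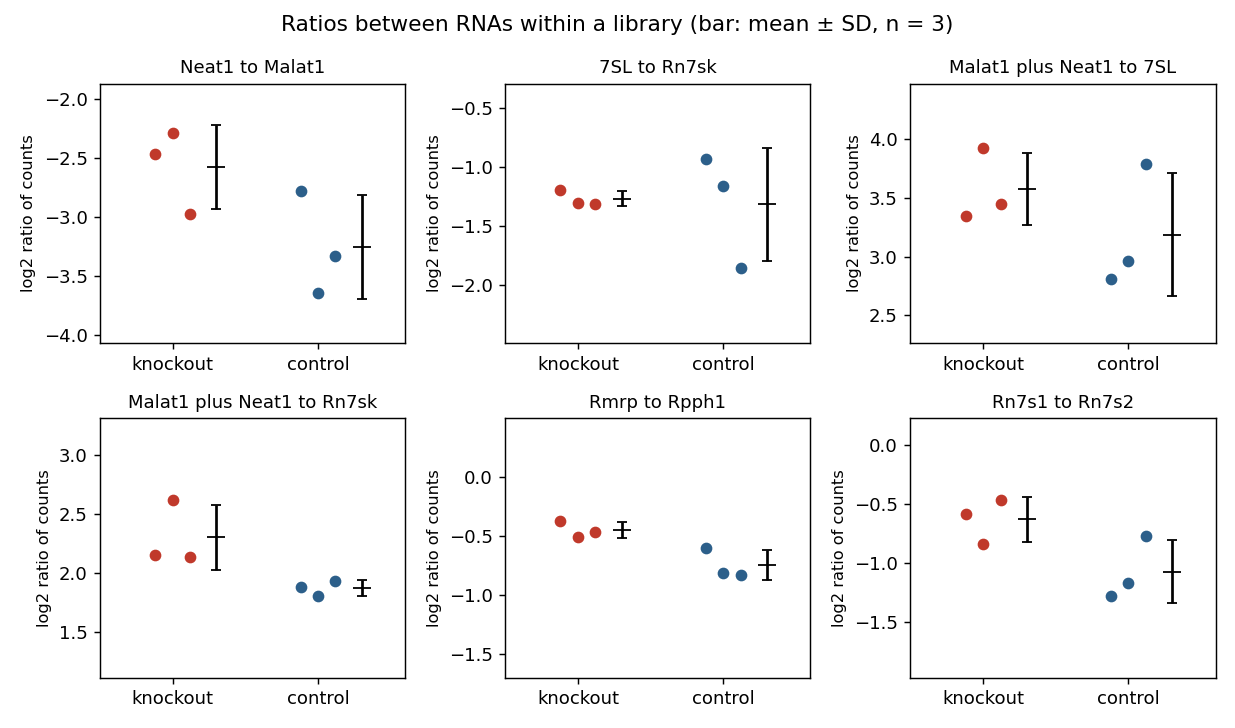
Log2 ratio of counts of the named RNAs within each library, with 0.5 counts added to each side, knockouts in red on the left and controls in blue on the right, mean ± SD (n = 3) beside the points. Rmrp to Rpph1 and Malat1 plus Neat1 to Rn7sk are the ratios in which the groups do not overlap.

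Other small structured RNAs gave mixed values. Of the 16 listed, 3 were tested and 1 was called higher. Rny1, a Y RNA of the Ro particle, had 51.8, 35.7 and 63.1 nuclear CPM in knockouts and 33.0, 24.0 and 28.7 nuclear CPM in controls. Every knockout lay above every control, and Rny1 rose 1.79-fold with a 95% interval from 1.27 to 2.54 (log2 fold change 0.84 ± 0.25 SE and adjusted p = 0.0133). Vaultrc5, the RNA of vault particles, had 39.5, 31.0 and 34.1 nuclear CPM in knockouts and 24.2, 17.6 and 22.3 nuclear CPM in controls. Its groups did not overlap either, and it did not pass the test (log2 fold change 0.71 ± 0.29 SE and adjusted p = 0.0762). Rny3, the other Y RNA of mice, had -0.18 ± 0.25 SE as its log2 fold change and did not pass. Of the genes annotated as snRNA, the class of the spliceosomal RNAs, 51 had a count outside the rRNA read loci, with 1049 counts over the knockouts and 720 over the controls, and 5 were tested and 0 called. The 16 rows in the files that carry a listed name of a spliceosomal RNA or U3 held 59 counts over the knockouts and 45 over the controls, with 0 tested. The RNA polymerase III machinery, which transcribes the 5 short RNAs, had 1 of 30 listed genes tested, and that gene was not called. Its summed level was between 140.6 and 144.4 nuclear CPM in knockouts and between 116 and 136 nuclear CPM in controls.

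Of 18 genes listed as other long nuclear RNAs, 2 were tested and 0 were called. Tug1, a long noncoding RNA found in the nucleus and the cytosol, had -0.03 ± 0.42 SE as its log2 fold change. Gm26917 had 1305, 1405 and 407.5 nuclear CPM in knockouts and 400.2, 352 and 398 nuclear CPM in controls. Knockout 3 stood near the controls and below the other knockouts, and the fold of 2.71 did not pass the test (adjusted p = 0.176). Whether the reads counted for Gm26917 come from a long nuclear RNA was not tested. The 5 rRNA read loci were all tested and 0 were called, with a median log2 fold change of 0.11. One of them, Gm23935, had 97640, 70770 and 30520 nuclear CPM in knockouts and 63380, 46910 and 52900 nuclear CPM in controls. Knockout 3 was the lowest knockout in nuclear CPM for Gm26917, Gm23935 and Neat1. The same held for Malat1, Rmrp, Rpph1 and Rn7s2, but not for Rn7sk and Rn7s1.

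The genes nearest to each RNA over the 6 libraries were found by the Euclidean distance of log2 nuclear CPM, each gene centred on its own mean. For Rmrp these were Csrp3, a LIM protein of the sarcomere, at a distance of 0.10, Vdac1, the channel of the outer mitochondrial membrane, at 0.20, and Nek9 at 0.27. For Rpph1 they were Tnnc1, the cardiac troponin C, at 0.11, Pafah1b1 at 0.15 and Narf at 0.16. Malat1 lay nearest to Pde4dip at 0.20, Ttn, the giant spring of the sarcomere, at 0.20, and Jmy at 0.21, and Rn7sk to Dhx9, an RNA helicase of the nucleus, at 0.24, Fermt2 at 0.24 and Lama5 at 0.25. Rn7s1 lay nearest to Trio at 0.16, Ddx6 at 0.22 and Sf3b1 at 0.23, and Rn7s2 to Dchs1 at 0.25, Pecam1 at 0.31 and Ppp6r3 at 0.31. Neat1 had no gene so near: Akt2 came first at 0.48, followed by Hspb8 at 0.51 and Sbf1 at 0.52. Among the 7 RNAs the closest pair was Rmrp and Rpph1 at 0.42, with Rn7s1 and Rpph1 almost as near at 0.44. The farthest pair was Rn7s2 and Neat1 at 1.78, while the identical Rn7s1 and Rn7s2 lay 0.72 apart. Counting error adds to these distances, most for RNAs with few counts such as Rn7s1, with 22 to 47 per library. Its part in the distances was not tested.

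Markers of some cell types of the heart were called lower, beside 6.85% of all tested genes. The 8 macrophage markers had a summed level between 36.9 and 50.7 nuclear CPM in knockouts and between 95.5 and 154 nuclear CPM in controls, and both tested members, Csf1r and Lyz2, were called lower. The 7 smooth muscle and pericyte markers had between 239.8 and 337 nuclear CPM in knockouts and between 368 and 439.8 nuclear CPM in controls, with 2 of 5 tested, Pdgfrb and Acta2, called lower. The 8 endothelial markers had between 259 and 299 nuclear CPM in knockouts and between 333 and 378 nuclear CPM in controls, with 0 of 6 tested called, and of the erythroid markers 0 of 4 were called. Of the cardiomyocyte markers 4 of 8 were called lower (Ryr2, Tnnt2, Pln and Actc1) and of the fibroblast markers 1 of 8 (Dpt), with a median log2 fold change of -0.31 over the cardiomyocyte list and -0.29 over the fibroblast list. The summed erythroid markers overlapped between the groups. All markers of these lists had at least 1 count. The part of these cell types in the values of the 7 RNAs was not tested.

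The authors' deposited table gives Rn7s2, Rn7s1, Rpph1 and Malat1 a false discovery rate above 0.2. In the authors' deposited table the log2 fold change was -0.41 for Rn7s2 with a false discovery rate of 0.226, 0.06 for Rn7s1 with 0.951, 0.34 for Rpph1 with 0.344 and 0.03 for Malat1 with 0.979.

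**Figure D4:**
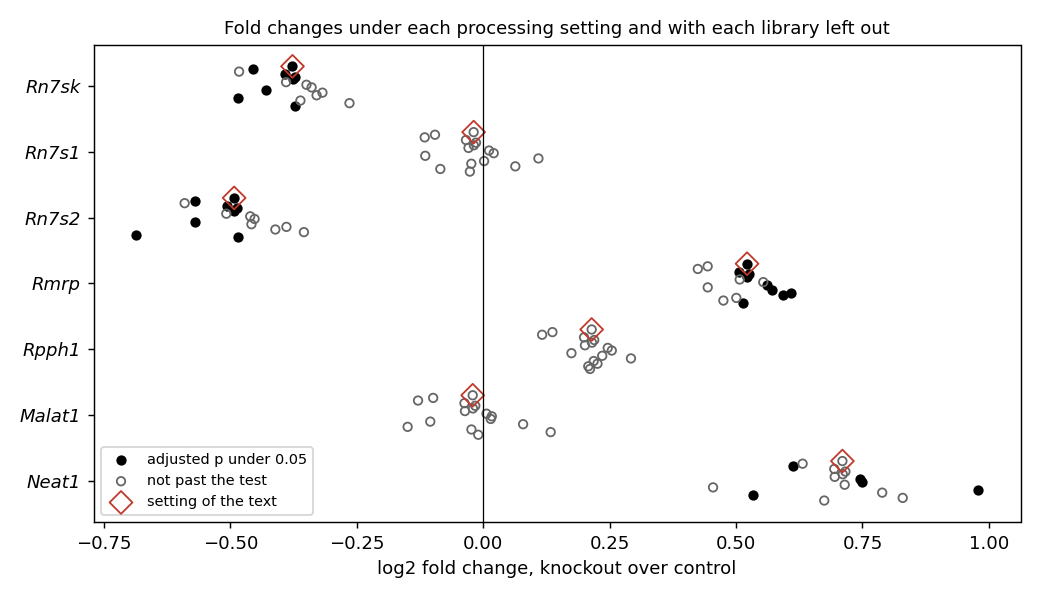
Fitted log2 fold change of each RNA under the setting of the text (diamond), 9 other processing settings and 6 fits with a library left out, filled where the adjusted p was under 0.05. Rn7sk and Rn7s2 stay below 0 and Rmrp, Rpph1 and Neat1 above 0 in all of them, while Rn7s1 and Malat1 lie on both sides of 0.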

How the data were processed

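RNA of crude heart mitochondria was sequenced in 6 libraries, 3 per group, from miRNeasy RNA and TruSeq libraries read as paired ends on a MiSeq, per the labels' protocols. The submitters' processing notes name edgeR 3.11.2, R 3.2.0, featureCounts 1.3.5-p4 and HISAT 0.1.6, and GRCm38 as build. Raw counts for each gene were deposited. For 6319 genes the authors' deposited table lists a p-value, a false discovery rate, a log2 fold change and a score, the likelihood ratio, and its fold changes were taken as knockout over control because mt-Co1 is at -5.01 in it. The sources used here give neither a strand setting nor how reads with several alignments were treated. A second set of deposited normalised values was not used.

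Counts of the 35 mtDNA values were left out, and the other 39142 identifiers were fitted with edgeR 4.0.16 (R 4.3.3, robust quasi-likelihood test, TMM, filterByExpr with minimum count 10 and minimum total count 15), which tested 2351 genes. Every adjusted p in the text without another tool's name is from this edgeR fit, by Benjamini-Hochberg over all genes tested, and tests were 2-sided. The SE is the one implied by the F statistic. Symbols, positions and sequences came from the transcripts and genes of GENCODE M21 on GRCm38, which gave 37656 nuclear identifiers their symbols, and copies were sought with blastn 2.17.0. Replicates differed by more than sampling noise (chi-square per degree of freedom 1.23 to 1.78 outside the rRNA read loci). The fit was tested on simulated data. Alternatives were another scaling, DESeq2 1.42.0, other filters, a replicate block and each library left out.

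The 7 RNAs and the gene lists were chosen with earlier results of these data known. Named genes are the 7 RNAs, up to 4 called genes of each list and the 3 nearest genes of at least median expression per RNA. Other list members were named after their values were seen. Intervals of fold changes come from the edgeR fit and include the spread between libraries. Intervals of shares and floors (3 counts) cover only the counting error, because without molecular identifiers reads need not be independent molecules. The value of 1 listed gene and 1 sequence are not reported here.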

Additional observations from a re-analysis of the deposited data

How the results depend on the processing

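Rn7sk, Rn7s2, Rmrp, Rpph1 and Neat1 kept their direction in the 9 other settings and the 6 fits with a library left out. With mtDNA genes in the library size, 0 of the 7 were higher and Rmrp was at 0.44 (log2, as below). With no scaling beyond the nuclear library size, which moves the median of all genes by -0.10 and the share of calls that are higher to 44.5% from 55.3%, 0 were lower, with Rn7sk at -0.48, Rn7s2 at -0.59, Rmrp at 0.42 and Neat1 past the test at 0.61. DESeq2 called 93 genes higher and 50 lower, 0 and 0 of the 7, with Rn7sk at -0.39, Rn7s2 at -0.51 and Rmrp at 0.51. With no low-count filter 99 genes were lower and 0 of the 7, with Rn7sk at -0.35, Rn7s2 at -0.46, Rmrp at 0.55, Neat1 past the test at 0.75, and Rn7s1 at 0.0115 and Malat1 at 0.0065 turned. On genes with a count in all 6 libraries 2 of the 7 were higher and 0 lower, with Rn7sk at -0.34, Rn7s2 at -0.45, Neat1 past the test at 0.75, and Rn7s1 at 0.0208 and Malat1 at 0.0170 turned. The share of calls that were higher was 65% with DESeq2 and 64.5% without the filter. Summing both 7SL genes, chosen after seeing the data, left 1 lower. The difference in the share of nuclear counts held by the 7, -0.0143 points, was 0.0213 points outside the rRNA read loci. With each library left out, Rn7sk ranged from -0.49 to -0.26, Rn7s1 from -0.11 to 0.11, Rn7s2 from -0.69 to -0.35, Rmrp from 0.44 to 0.61, Malat1 from -0.15 to 0.13 and Neat1 from 0.45 to 0.98. Over these fits 151 to 195 genes were higher and 106 to 147 lower, and of the 7, 0 to 2 were higher and 0 to 2 lower. The difference in the log2 ratio of 7SL to Rn7sk ranged from -0.22 (without control 3) to 0.24, and that of the share from -0.0418 to 0.0034 points. Beyond filters and scaling named in a setting, the cause was not tested. Same-numbered libraries did not qualify as pairs (correlations of deviations 0.05, 0.06 and 0.08), though 6 of 6 correlated best with their own number, and the replicate block gave 203 genes higher and 162 lower and changed no call of the 7. Depth limits the small RNAs, since 3 counts are worth 3.10 to 6.60 nuclear CPM.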
